A study of Mus musculus with 16 samples.

Results

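The primary cilium assembly genes comprise 44 mouse genes that build and service the primary cilium: the subunits of intraflagellar transport (IFT) complexes, the BBSome, the ciliary transition zone, the ARL GTPases of the cilium and the 2 motors that move along its axoneme. They were chosen by name for these functions, after results of these libraries were known. All 44 symbols matched 1 Ensembl identifier each among the 32989 identifiers of the UMI count table, and 43 reached the mean count of 5 per library required for testing, among 19049 genes in all. Bbs10, a chaperonin-like factor that helps the BBSome to assemble, missed it with 34 UMIs over 16 libraries (0 to 3 per untreated library and 1 to 8 per treated library).

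RNA was measured by 3′ RNA-seq with unique molecular identifiers (UMIs) in cells sorted from hair follicle stem cell (HFSC) organoids. Epidermal cells of wild-type C57BL/6J mice had spent 2 weeks in the 3D-3C culture, an organoid system that keeps HFSCs and progenitors side by side. Cells from 4 mice contributed 1 library to each of 4 groups: untreated α6+/CD34- progenitors, untreated α6+/CD34+ HFSCs, and the same fractions after 72 h with N1-acetylspermidine (N1-AcSpd), an acetylated polyamine. The groups share strain, culture and culture time, and the 4 mice are the replicates, numbered alike in all groups. The labels give no age or sex of single donors. The study's methods describe donors of both sexes with follicles in telogen, and give their ages as separate ranges of postnatal days. Which range each of these donors belonged to is not stated. The cells are cultured epidermal cells sorted on integrin α6 and CD34, so they stand for the bulge only as far as the organoid does.

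The primary cilium is a single, non-motile projection of the plasma membrane around microtubules that grow from the mother centriole, and it serves as a receiver of signals such as Hedgehog. Nothing is translated inside it, so its parts are carried in and out by IFT trains of the IFT-A and IFT-B complexes. These trains move outwards with kinesin-2 and return with dynein-2. The transition zone at its base gates entry, and the BBSome moves membrane proteins out. Keratinocytes and the cells of the hair follicle carry primary cilia, which are resorbed when a cell divides.

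Libraries held 15480075 to 29074855 UMIs, and the deepest belonged to treated progenitors. Values are given as CPM, each UMI count scaled to the effective size of its library. On log2 CPM, libraries of 1 group correlated at 0.937 to 0.957 across genes and libraries of different fractions at 0.923 to 0.944, so no library stood apart. Cd34 itself, the gene of the sorting marker, lay at 2.87 to 3.65 CPM in the 8 progenitor libraries and at 43.4 to 64 CPM in the 8 HFSC libraries, and the bulge genes Krt15, Lhx2 and Sox9 were called higher in HFSCs in both conditions. Keratinocyte markers (Krt5, Krt14, Itga6 and Trp63) summed to 5713 to 6945 CPM in the 16 libraries. The 10 motile cilium genes with a row summed to at most 2.69 CPM in a library, and Foxj1, Dnah5 and Dnah9 had no row in the table. Fibroblast genes summed to at most 1.52 CPM and immune genes to at most 2.03 CPM, with no row for Cd207 and Tyrobp. The fibroblast gene Col1a2 was called lower in HFSCs in both conditions, from group means of 0.326 and 0.454 CPM to 0.068 and 0.0923 CPM. Melanocyte genes summed to 9.38 to 12.6 CPM, of which Pmel gave 9.87 to 10.6 CPM in group means while the group means of Tyrp1 stayed at or under 0.028 CPM. Of the endothelial genes, Cdh5 had no row and Kdr had 18 UMIs over all libraries. Pecam1 had 636426 UMIs and was called lower in HFSCs by 0.13 in both conditions. The UMIs of Pecam1 were not checked for sharing with other genes, so they cannot be read as endothelial RNA.

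Most cilium assembly genes stood higher in HFSCs than in progenitors. In untreated cells 28 of the 43 members were called at an adjusted p under 0.05, 25 higher and 3 lower in HFSCs, where 32.1% of all genes tested were called (16.1% higher and 16.1% lower). After N1-AcSpd 30 were called, 27 higher and 3 lower, against 33.3% of all genes (16.5% higher and 16.8% lower). At an unadjusted p under 0.05 there were 33 and 31 members, and 40.6% and 41.8% of all genes. The median member had a log2 fold change of 0.62 in untreated and of 0.64 in treated cells, and the median of all genes tested was 0.022 and -0.0068. Since the members were listed with such values in view, these counts describe the list and lend no support to its direction. In the bulk libraries, fewer cells with a transcript and less of it per cell cannot be told apart.

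**Figure D1:**
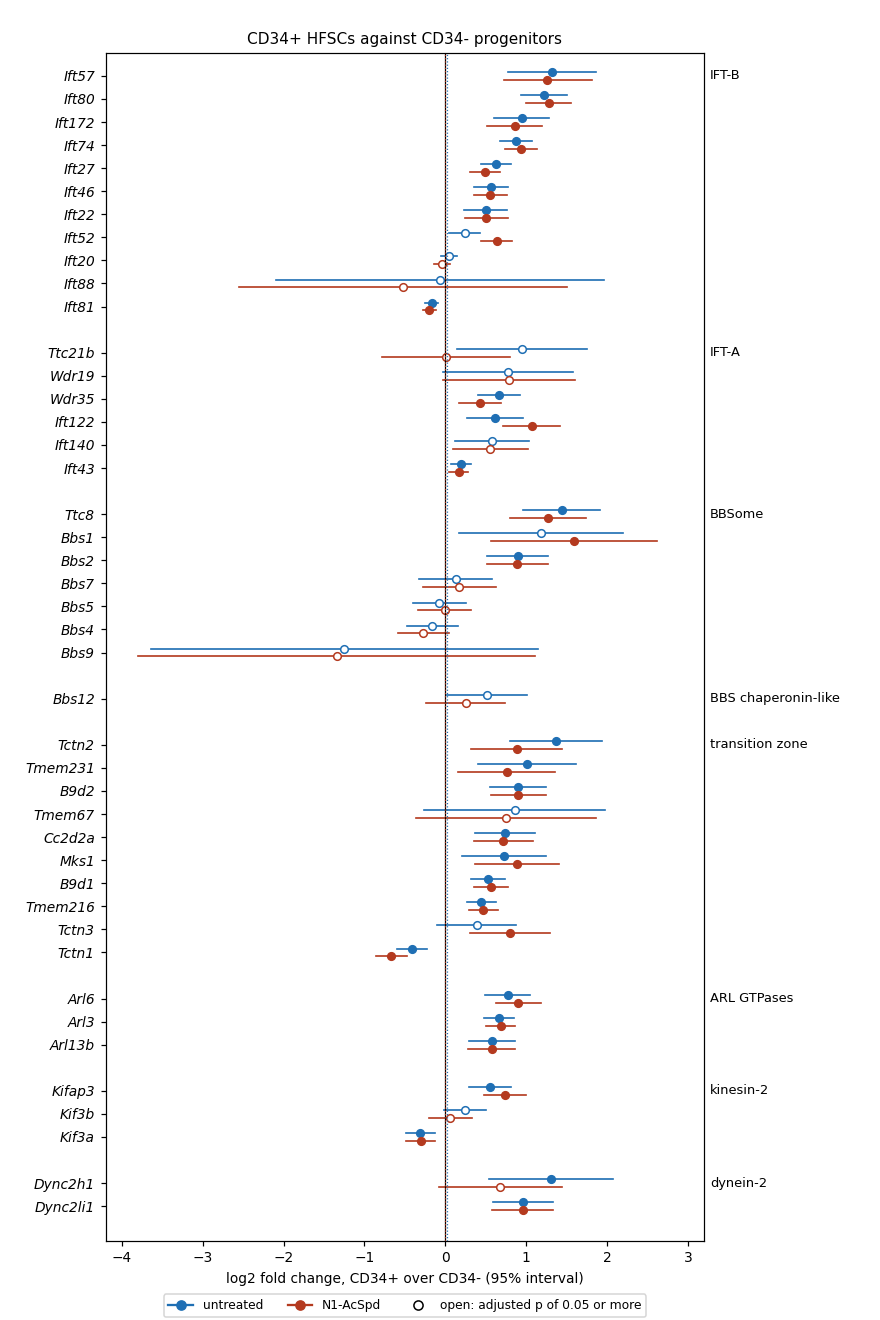
The x axis gives the log2 fold change of CD34+ HFSCs over CD34- progenitors with its 95% interval for the 43 tested members, in blue for untreated and in red for N1-AcSpd-treated cells, ordered within each role. Filled points passed an adjusted p of 0.05, dotted lines mark the median of all genes, and 24 members lie filled to the right of 0 in both conditions while Ift81, Tctn1 and Kif3a lie filled to the left.

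Most calls were of the same members in both conditions. Of the 43, 24 were called higher and 3 lower in both, 1 (Dync2h1) was called in untreated cells only, 3 (Ift52, Bbs1 and Tctn3) in treated cells only, and 12 in neither. The sign of the fold change was the same in both conditions for 42 members. The matching shares over all genes tested were not computed, so this agreement cannot be read as particular to the members. The interaction, which asks whether the cell type difference changes with treatment, called 0 members by edgeR, where 0% of all genes were called. By DESeq2 it called 0 members, against 0.373% of all genes. An unadjusted p under 0.05 was found for 1 member (Ift52) and for 4.19% of all genes. The libraries of both fractions come from the same 4 mice, and within each mouse the median member was 0.34 to 0.65 higher in untreated HFSCs on a log2(CPM + 0.5) scale and 0.41 to 0.59 higher in treated HFSCs. The medians of all genes in the same mice lay between -0.013 and 0.017.

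The reference for these values moved with the scaling. Scaling by library totals alone put the all-gene median at 0.14 in untreated and 0.11 in treated cells, and the share of higher calls among all called genes went from 50% to 73.4% and from 49.6% to 71.6%. The members then counted 32 higher and 1 lower in untreated cells and 28 higher and 1 lower in treated cells, with medians of 0.74 and 0.76.

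**Figure D2:**
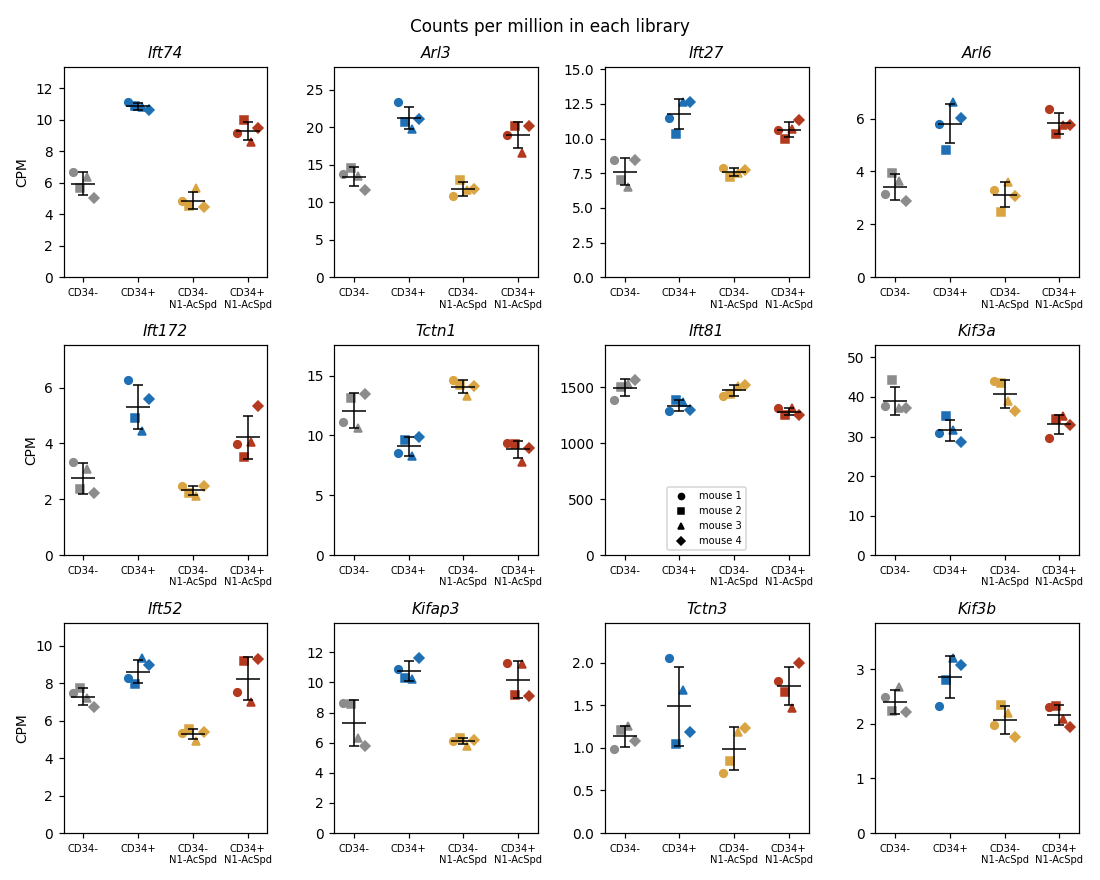
Each panel plots the CPM of 1 member in every library, with the groups on the x axis, a symbol for each mouse, and the mean and SD of 4 libraries in black. Ift74, Arl3, Ift27, Arl6, Ift172 and Kifap3, picked for small adjusted p, separate CD34+ from CD34- libraries without overlap. The fractions did not overlap for 32.2% of all genes tested in untreated and 34.4% in treated cells. Ift52 in treated progenitors lies at 4.9 to 5.53 CPM, below the 3 other groups.

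IFT-B had 7 of its 11 members called higher and 1 lower in untreated HFSCs (72.7% called), and 8 higher and 1 lower in treated HFSCs (81.8%). For this and every group that follows, the share called among all genes was 32.1% in untreated and 33.3% in treated cells. The fractions did not overlap for 32.2% of all genes in untreated and 34.4% in treated cells. These shares stand beside each statement of no overlap between fractions below. Group counts use UMIs as deposited, and members that may share UMIs with other genes are described further below. Ift74 (chr4:94614491-94693229, + strand, mm10), which forms the tubulin-binding module with Ift81, had 6.66, 5.68, 6.36 and 5.01 CPM in untreated progenitors of mice 1 to 4 and 11.1, 10.9, 10.8 and 10.6 CPM in untreated HFSCs. It had 4.83, 4.51, 5.66 and 4.47 CPM in treated progenitors and 9.13, 9.96, 8.59 and 9.45 CPM in treated HFSCs. No HFSC library overlapped a progenitor library. The log2 fold change was 0.87 ± 0.091 (SE, adjusted p = 7.62e-06) untreated and 0.93 ± 0.091 (adjusted p = 3.94e-06) treated.

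Ift27 (chr15:78159463-78174107, - strand), a small GTPase of IFT-B that links it to the BBSome, had 8.43, 7.02, 6.54 and 8.48 CPM in untreated progenitors and 11.5, 10.3, 12.6 and 12.6 CPM in untreated HFSCs. In treated cells it had 7.84, 7.2, 7.52 and 7.71 CPM in progenitors and 10.6, 9.96, 10.7 and 11.3 CPM in HFSCs. All HFSC libraries lay above all progenitor libraries, by a log2 fold change of 0.63 ± 0.087 (adjusted p = 9.75e-05) and 0.49 ± 0.087 (adjusted p = 0.000553). Ift172 (chr5:31253277-31291116, - strand), the largest IFT-B protein and the one at the tip turnaround, had 3.35, 2.36, 3.07 and 2.21 CPM in untreated progenitors against 6.26, 4.93, 4.44 and 5.6 CPM in HFSCs. After treatment it had 2.47, 2.23, 2.13 and 2.46 CPM against 3.97, 3.53, 4.05 and 5.34 CPM. Its log2 fold changes of 0.94 ± 0.16 (adjusted p = 0.000426) and 0.86 ± 0.16 (adjusted p = 0.000768) came without overlap between the fractions.

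Among the other IFT-B genes, Ift80 had log2 fold changes of 1.22 and 1.28 (adjusted p = 1.04e-05 and 5.6e-06), with 1.3 to 1.8 CPM in untreated progenitors and 2.93 to 3.8 CPM in untreated HFSCs. Ift46, needed for the stability of IFT-B, and Ift22, a GTPase-like subunit, rose by 0.50 to 0.56 in both conditions, and the calls of Ift22 were lost without mouse 2 (adjusted p = 0.058 and 0.054). Ift20, which also sits at the Golgi, was deeply counted at 13715 UMIs, and its log2 fold changes of 0.047 and -0.038 had narrow 95% intervals of -0.052 to 0.15 and -0.14 to 0.061. With library totals its untreated value was 0.16 (adjusted p = 0.0267). Ift52, a core subunit, had 7.48, 7.73, 7.19 and 6.72 CPM in untreated progenitors and 8.25, 7.95, 9.32 and 8.94 CPM in untreated HFSCs. This difference of 0.24 ± 0.089 missed the threshold (adjusted p = 0.0514) although the libraries did not overlap, and passed it with only the compared groups (adjusted p = 0.0362) and with library totals (0.36, adjusted p = 0.00785).

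IFT-A had 3 of its 6 members called higher and 0 lower in each condition (50% called). Ift43 rose by 0.19 and 0.16 (adjusted p = 0.0165 and 0.035), the smallest called rise of the list. Its call was lost in untreated cells without mouse 2 or mouse 4 (adjusted p = 0.0967 and 0.12) and in treated cells in 12 of 30 alternatives, among them those without mouse 2, 3 or 4 (adjusted p = 0.085 to 0.174). Ift122 rose from 1.82 ± 0.24 to 2.8 ± 0.49 CPM (SD, n = 4 mice) in untreated and from 1.27 ± 0.15 to 2.68 ± 0.54 CPM in treated cells, and its untreated call was lost without mouse 1 (adjusted p = 0.0558). Wdr35 rose by 0.66 and 0.43, and its call in treated cells was lost without mouse 1 or mouse 3 (adjusted p = 0.0831 and 0.0947). Ift140 had 0.58 and 0.56 without passing the test (adjusted p = 0.0543 and 0.0615), and passed it in both conditions with mouse blocking (adjusted p = 0.0219 and 0.0321). Wdr19 had 0.78 and 0.79 (adjusted p = 0.135 and 0.132), and 1.36 in untreated cells without mouse 2 (adjusted p = 0.0147). Ttc21b had 0.95 in untreated cells (adjusted p = 0.0689, and 0.0237 with mouse blocking) and 0.0066 in treated cells (adjusted p = 0.996), a difference between conditions of -0.94 ± 0.52 (unadjusted p = 0.0944). Wdr19 had 239 UMIs in all and Ttc21b 477, so their intervals were wide (in untreated cells -0.024 to 1.58 for Wdr19).

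The BBSome, which ferries membrane proteins, had 2 of its 7 members called in untreated (28.6%) and 3 in treated cells (42.9%), all higher. The untreated share lay under the 32.1% of all genes called, with Bbs9 counted as deposited. Net of the UMIs of overlapping genes, Bbs9 was called higher in both conditions (adjusted p = 0.00136 and 0.000247), as described below. Ttc8 (also called Bbs8) rose by 1.44 ± 0.22 (adjusted p = 0.000229) in untreated and 1.27 ± 0.22 (adjusted p = 0.000474) in treated cells, from 0.433 to 0.83 CPM in untreated progenitors to 1.19 to 1.79 CPM in untreated HFSCs. Bbs2 rose by 0.90 and 0.89. Bbs1, with 115 UMIs, had 1.18 in untreated cells (adjusted p = 0.073, and 0.0418 without mouse 4) and rose by 1.59 ± 0.48 in treated cells (adjusted p = 0.0196), a call lost without mouse 1 or mouse 3 (adjusted p = 0.105 and 0.101), without the treated progenitor library of mouse 1 (0.0529) or without the treated HFSC library of mouse 4 (0.0511). Bbs5 and Bbs7 had fold changes between -0.074 and 0.18 in both conditions, and their 95% intervals reached from -0.40 to 0.63. Bbs12, like Bbs10 a chaperonin-like assembly factor, had 0.52 and 0.25 (adjusted p = 0.104 and 0.454), and in untreated cells 0.68 without the HFSC library of mouse 1 (adjusted p = 0.0389).

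The transition zone had 7 of 10 members called higher and 1 lower in untreated HFSCs (80% called), and 8 higher and 1 lower in treated HFSCs (90%). B9d1 and B9d2, B9-domain proteins of the MKS module, rose by 0.53 and 0.90 in untreated and by 0.56 and 0.91 in treated cells. B9d2 had 2.62 to 4 CPM in untreated progenitors and 5.32 to 6.99 CPM in untreated HFSCs. Tctn2, a tectonic, rose by 1.37 ± 0.26 in untreated cells (adjusted p = 0.00125) and by 0.89 ± 0.26 in treated cells (adjusted p = 0.0187). Without mouse 4 the value of Tctn2 in treated cells was 0.51 (adjusted p = 0.0809), and the call was also lost without mouse 2, mouse 3 or either treated library of mouse 4 (adjusted p = 0.0506 to 0.0688). Cc2d2a rose by 0.74 and 0.72, calls that were lost without mouse 3 or 4 in untreated cells (adjusted p = 0.0532 and 0.0547) and without mouse 4 in treated cells (adjusted p = 0.0571). Tmem231 rose by 1.01 and 0.76, in treated cells at an adjusted p of 0.0497 that 20 of 30 alternatives moved past 0.05. In untreated cells its call was lost without mouse 3 or 4 (adjusted p = 0.0534 and 0.124) or the HFSC library of mouse 4 (adjusted p = 0.0518). Mks1, with 196 UMIs, rose by 0.72 (adjusted p = 0.0429) in untreated cells, a call lost in 15 of 30 alternatives, and by 0.89 (adjusted p = 0.0112) in treated cells, a call lost without mouse 2, 3 or 4 (adjusted p = 0.0622 to 0.105). Mouse blocking removed the call of Mks1 in untreated cells (adjusted p = 0.0567) and of Tmem231 in treated cells (adjusted p = 0.0653).

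Tctn3, the third tectonic, had 0.989, 1.21, 1.26 and 1.08 CPM in untreated progenitors and 2.05, 1.04, 1.68 and 1.18 CPM in untreated HFSCs, which overlapped. In treated cells the 0.701, 0.851, 1.18 and 1.23 CPM of progenitors lay below the 1.78, 1.65, 1.47 and 2 CPM of HFSCs. The log2 fold change was 0.39 ± 0.23 (adjusted p = 0.225) in untreated and 0.80 ± 0.23 (adjusted p = 0.0143) in treated cells, and the difference between the 2 effects was 0.41 ± 0.32 (unadjusted p = 0.223). The call of Tctn3 was lost without mouse 1 or mouse 2 (adjusted p = 0.062 and 0.0652).

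The 3 ARL GTPases were called higher in both conditions. Arl3 (chr19:46531096-46573198, - strand), which releases lipid-modified cargo inside the cilium, had 13.8, 14.6, 13.5 and 11.6 CPM in untreated progenitors and 23.3, 20.7, 19.8 and 21.1 CPM in untreated HFSCs. In treated cells it had 10.8, 13, 11.6 and 11.8 CPM in progenitors and 19, 20.1, 16.5 and 20.2 CPM in HFSCs. The fractions did not overlap, at log2 fold changes of 0.66 ± 0.085 (adjusted p = 4.92e-05) and 0.69 ± 0.085 (adjusted p = 3.06e-05). Arl6 (chr16:59612949-59639391, - strand), the GTPase that recruits the BBSome to membranes, had 3.14, 3.96, 3.64 and 2.89 CPM against 5.8, 4.82, 6.61 and 6.01 CPM in untreated cells. Treated progenitors had 3.3, 2.48, 3.61 and 3.07 CPM and treated HFSCs 6.35, 5.4, 5.77 and 5.75 CPM. It rose by 0.77 ± 0.13 (adjusted p = 0.000426) and 0.90 ± 0.13 (adjusted p = 0.000105). Arl13b, the exchange factor for Arl3, rose by 0.58 and 0.57, and its treated call was lost without mouse 2 (adjusted p = 0.0599). Of its 3606 UMIs, 29.5% were matched by UMIs of Stx19 and the miRNA gene Gm25986, which overlap it on the opposite strand outside its exons, and these were not subtracted.

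The 3 subunits of the kinesin-2 motor went different ways. Kifap3 (chr1:163779583-163917109, + strand), the cargo-binding subunit, had 8.64, 8.56, 6.28 and 5.77 CPM in untreated progenitors and 10.9, 10.3, 10.2 and 11.6 CPM in untreated HFSCs. In treated cells it had 6.1, 6.31, 5.81 and 6.19 CPM against 11.3, 9.16, 11.2 and 9.1 CPM. It rose by 0.55 ± 0.12 (adjusted p = 0.00326) and 0.74 ± 0.12 (adjusted p = 0.000349), again without overlap. Kif3a (chr11:53567379-53601967, + strand), 1 of its 2 motor subunits, had 37.7, 44.2, 37.1 and 37.1 CPM in untreated progenitors and 30.9, 35.1, 31.6 and 28.6 CPM in untreated HFSCs. After treatment it had 44, 43.5, 38.9 and 36.5 CPM against 29.7, 34.4, 35.1 and 33 CPM.

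Kif3a thus fell in HFSCs, and its progenitor and HFSC libraries did not overlap. The log2 fold change was -0.31 ± 0.084 (adjusted p = 0.0121) in untreated and -0.30 ± 0.083 (adjusted p = 0.0122) in treated cells. Scaled by library totals it was -0.19 (adjusted p = 0.1) and -0.18 (adjusted p = 0.116), and it kept its sign. Its call was lost without mouse 4 in untreated cells (adjusted p = 0.0519), and without mouse 1 (adjusted p = 0.144) or the HFSC library of mouse 1 (adjusted p = 0.0617) in treated cells. Kif3b, the partner motor subunit, had 0.24 and 0.063 (adjusted p = 0.194 and 0.802), and 0.36 in untreated cells with library totals (adjusted p = 0.0371). Dync2li1, the light intermediate chain of dynein-2, rose by 0.96 in both conditions, from 1.95 to 3.7 CPM in untreated progenitors to 4.89 to 5.8 CPM in untreated HFSCs. Dync2h1, its heavy chain, rose by 1.31 ± 0.36 in untreated cells (adjusted p = 0.0123, and 0.053 without mouse 4), and had 0.68 ± 0.35 in treated cells (adjusted p = 0.166).

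Of the 3 members called lower, 2 had counts nearly all matched in number by those of overlapping genes. Ift81 (chr5:122550204-122614518, - strand), the partner of Ift74, had 476333 UMIs, of which 475157 (99.8%) were matched by UMIs of genes inside it, nearly all by the intronic Gm43541. Klhl32 and Tut7 on chromosomes 4 and 13, which do not overlap Ift81, held 475909 and 476639 UMIs and differed from it by less than counting noise in the 16 libraries. As deposited, Ift81 had 1391, 1507, 1529 and 1563 CPM in untreated progenitors and 1291, 1386, 1369 and 1294 CPM in untreated HFSCs, a log2 fold change of -0.17 ± 0.038 (adjusted p = 0.00408, and 0.0548 without mouse 4). Treated progenitors had 1421, 1439, 1511 and 1520 CPM and treated HFSCs 1312, 1253, 1312 and 1255 CPM, a log2 fold change of -0.20 ± 0.038 (adjusted p = 0.00102). The HFSC libraries lay below the progenitor libraries, and with library totals as the scale the values were -0.051 and -0.082 (adjusted p = 0.284 and 0.082).

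The UMIs of Ift81 that no overlapping gene held went the other way. They numbered 1176 and came to 3.06, 3.07, 2.73 and 2.62 CPM in untreated progenitors and 4.38, 4.17, 5.05 and 5.55 CPM in untreated HFSCs. In treated cells they came to 2.19, 2.24, 1.83 and 2.71 CPM in progenitors and 3.94, 4.96, 5.28 and 4.29 CPM in HFSCs. Net of overlapping genes, Ift81 was higher in HFSCs by 0.74 ± 0.13 (adjusted p = 0.000708) and 1.04 ± 0.13 (adjusted p = 3.87e-05). The subtraction was added after the data were seen.

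Tctn1 (chr5:122237848-122264460, - strand) had 3818 UMIs, of which 3800 were matched by Hvcn1, a proton channel gene that overlaps its exons on the opposite strand, and by the pseudogene Gm15481. The remaining 18 UMIs were too few to test, so the values of Tctn1 may be those of its neighbours. It had 11.1, 13.1, 10.6 and 13.5 CPM in untreated progenitors and 8.53, 9.59, 8.29 and 9.91 CPM in untreated HFSCs. In treated cells it had 14.6, 14.2, 13.3 and 14.1 CPM against 9.35, 9.27, 7.79 and 8.92 CPM. The fractions did not overlap, with log2 fold changes of -0.41 ± 0.087 (adjusted p = 0.00257) and -0.67 ± 0.087 (adjusted p = 5.13e-05).

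Genes lying across a member on either strand held UMIs worth at least 50% of the member's own for 9 of the 44 members. For 5 others (Ift74, Ift80, Ift140, Ttc21b and Arl13b) they held 0.283% to 29.5%, and these members were left as deposited and counted as separable. Whether the counting used strand is not given in the sources used here. Ift88, whose loss gives the classic cilium mutant, had 14645 UMIs, of which 13975 were matched by an intronic processed pseudogene, Gm15836, and an antisense gene. Its deposited values lay at 45.5 to 54.6 CPM in 13 libraries and at 1.67, 2.79 and 2.82 CPM in the 3 others, 1 each of untreated progenitors, untreated HFSCs and treated HFSCs. Net of them it had 1.17 to 2.96 CPM in all 16 libraries and fold changes of 0.45 and 0.54 (adjusted p = 0.174 and 0.0953). Bbs9, a BBSome subunit, likewise moved between 0.451 and 31.6 CPM with the pseudogenes Gm16165 and Gm2976. Its net values were 0.266 to 0.52 CPM in progenitors and 0.855 to 1.82 CPM in HFSCs, and higher in HFSCs by 1.34 ± 0.26 (adjusted p = 0.00136) and 1.65 ± 0.26 (adjusted p = 0.000247), where the deposited counts had -1.25 ± 1.11 and -1.34 ± 1.14.

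Cpsf7, which overlaps exons of Tmem216 on the opposite strand, held UMIs worth 52.7% of those of Tmem216. Whether these UMIs were counted for both genes was not tested, and Cpsf7 may hold UMIs from outside Tmem216. Tmem216 rose by 0.45 and 0.47 as deposited. Net of all Cpsf7 UMIs it rose by 0.67 and 0.72, values that hold only if those UMIs were also counted for Tmem216. Ift57 held 51 UMIs beyond those of the antisense Gm15518, too few to test, and its deposited rises of 1.32 and 1.26 cannot be told apart from that gene's. The counts of Bbs4, Bbs12 and Tmem67 were smaller than those of their overlapping genes and could not be separated, and none of these members was called. Among the 34 tested members with separable counts, 23 were called higher and 1 (Kif3a) lower in untreated cells, and 25 higher and 1 (Kif3a) lower in treated cells, with medians of 0.66 and 0.70. Separable refers to overlapping genes only. Genes elsewhere were compared for near-identical counts, so UMIs shared in part with them, also by Kif3a, would not have been seen.

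**Figure D3:**
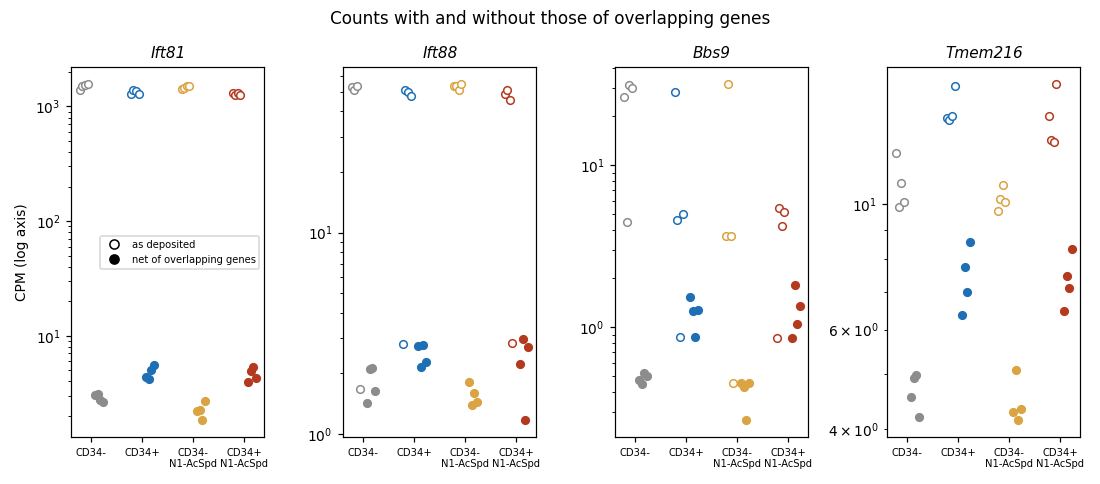
The y axis (log scale) gives CPM in each library for Ift81, Ift88, Bbs9 and Tmem216, open for deposited counts and filled after subtracting the UMIs of overlapping genes, with the groups on the x axis. Filled points of Ift81 lie at 1.83 to 3.07 CPM in CD34- and at 3.94 to 5.55 CPM in CD34+ libraries, below deposited values of 1253 to 1563 CPM, and Ift88 and Bbs9 jump between deposited libraries of 1 group, while net Ift88 lies at 1.17 to 2.96 CPM and net Bbs9 at 0.266 to 0.52 CPM in CD34- and 0.855 to 1.82 CPM in CD34+ libraries.

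Promoter sequences were examined because RFX transcription factors, which drive many cilium genes, bind a palindromic X-box. RefSeq windows of 250 bases before to 50 bases after the start site (GRCm38.p6) were at hand for 39 members and 27025 genes in all. The X-box was searched as GTTNCC and GGNAAC with any 2 bases between them, which reads the same on both strands, and was found in 3 of the 39 (7.69%), against 0.529% of all genes. Its first arm in the form GTTGCC, searched on both strands and contained in each of the 3 X-boxes, was found in 19 of 39 (48.7%), against 14.1% of all genes. The 3 X-boxes are shown on the strand of the gene with the motif in capitals:
Bbs7: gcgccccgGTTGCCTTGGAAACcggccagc
Tctn1: ctgtgactGTTGCCCGGGCAAC
Mks1: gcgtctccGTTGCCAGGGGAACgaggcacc
They lie at chr3:36613489-36613518 (- strand), chr5:122264411-122264432 (- strand) and chr11:87853183-87853212 (+ strand). Of their genes, Mks1 was called higher in HFSCs and Bbs7 was not called. The counts of Tctn1 were nearly all matched by those of overlapping genes.

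Of the 23 members with separable counts that were called in both conditions, 20 had a promoter window and 10 of these held GTTGCC. One window around it is shown for 8 of them, on the strand of the gene, with GTTGCC or its reverse complement in capitals, to let the flanks be compared (Mks1 is shown above, and the match in Wdr35 ends near the edge of its window):
Ift27: gggttgatgatgGTTGCCaggagcctgttt
Ift172: tgtcgcactcacGTTGCCtgtgcgtcagcg
Tctn2: cattgattggtgGTTGCCatggctgcaggc
B9d1: cgagagcctcctGGCAACagcgcgcggcct
B9d2: gaggaacctgctGTTGCCccagcaacagtc
Tmem231: tgcccgccgtcgGTTGCCgtggagactcgg
Arl13b: acagacgctccaGTTGCCtagttaccagag
Kif3a: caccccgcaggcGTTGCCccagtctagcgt
They lie at chr15:78174073-78174102 (- strand), chr5:31291097-31291126 (- strand), chr5:124598750-124598779 (+ strand), chr11:61505152-61505181 (+ strand), chr7:25680784-25680813 (+ strand), chr8:111933785-111933814 (- strand), chr16:62847204-62847233 (- strand) and chr11:53567259-53567288 (+ strand), in GRCm38.p6. Of these 8 genes, Kif3a fell in HFSCs and the others rose. A match to these letters is a description and no measure of binding. Of the 5 RFX genes with a row, 1 was called in untreated cells (20%) and 0 in treated cells. These shares lay under the 32.1% and 33.3% of all genes called. Rfx5 rose in untreated HFSCs (0.58, adjusted p = 0.00754) and had 0.27 in treated HFSCs (adjusted p = 0.179). Rfx1, Rfx2, Rfx3 and Rfx7 were not called in either condition (adjusted p = 0.0586 to 0.893). The part of any RFX gene in the values of the members was not tested.

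Further genes of the cilium, from lists that also were drawn up with results known, gave calls in both directions. Overlapping genes and shared counts were searched for the 44 members only, so the counts of these further genes were not checked. Of 12 tested further IFT and motor genes, 7 were called higher and 3 lower in untreated HFSCs, and 7 higher and 2 lower in treated HFSCs (83.3% and 75% called), with medians of 0.51 and 0.50. Ttc30b, an IFT-B subunit, rose by 1.37 and 1.35, Tctex1d2, a dynein-2 light chain, by 0.78 and 0.68, and Cluap1, an IFT-B subunit, by 0.52 and 0.56. Kif17, a second ciliary kinesin, fell by 0.62 and 0.45, and Tulp3, the adaptor that brings receptors to IFT-A, fell from 74.1 ± 10.3 CPM to 45.6 ± 7.11 CPM (SD, n = 4) in untreated cells. Of 12 tested genes of the transition zone and the inversin compartment, 7 rose and 1 fell in each condition (66.7% called), with Tmem107 at 0.88 and 0.99 and Tmem237 at 1.04 and 0.60. The gene that fell, Iqcb1, had group means of 1265 to 1482 CPM, near those of Ift81 (1283 to 1497 CPM).

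At the base of the cilium, 6 of 11 genes of the basal body and distal appendages rose in untreated and 7 in treated HFSCs (54.5% and 63.6%), and 0 fell. Cep164, which docks the basal body at the membrane, rose by 0.46 and 0.68 and Cby1 by 0.68 and 0.60. Of the 6 ciliary membrane targeting genes 2 rose in each condition, Pde6d (0.57 and 0.65) and Rp2 (0.62 and 0.74), which work with Arl3. This share of 33.3% equals that of all genes called in treated cells and is near the 32.1% in untreated cells. Of the 6 BBSome partners 1 rose (Wdpcp, 1.77) and 1 fell (Rab3ip, -0.40) in untreated cells, and 2 rose (Wdpcp, 1.56, and Lztfl1, 0.43) and 1 fell (Rab3ip, -0.31) in treated cells. The shares of 33.3% and 50% compare with 32.1% and 33.3% of all genes, so the untreated count is at the background. Of 9 genes that cap or disassemble the cilium, 3 rose in untreated HFSCs (33.3%, at the background of 32.1%), 6 rose in treated HFSCs (66.7%), and 0 fell. Nedd9, the scaffold that activates the disassembly kinase Aurora A, rose by 1.23 and 1.40, and Aurka itself by 0.36 and 0.69.

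The fractions also differed in proliferation and differentiation. All 12 proliferation genes of the list rose in HFSCs in both conditions, with medians of 0.54 and 0.78, and Mki67 went from 17 to 20.7 CPM in untreated progenitors to 23.3 to 36.7 CPM in untreated HFSCs. The 6 terminal differentiation genes fell in both, with medians of -1.16 and -1.42. The part of either in the values of the cilium genes was not tested.

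After N1-AcSpd 1 cilium gene passed the test, in 1 fraction, and most had fold changes slightly below 0. In progenitors 1 of 43 members (Ift52, lower) was called, against 0.614% of all genes (0.373% higher and 0.241% lower). In HFSCs 0 were called by edgeR, against 0.325% of all genes (0.189% higher and 0.136% lower). DESeq2 also called 0 members there, against 2.26% of all genes. At an unadjusted p under 0.05 there were 6 members in progenitors (5 lower, 1 higher) and 5 in HFSCs (5 lower, 0 higher), and 13.6% and 13.2% of all genes. Fold changes were below 0 for 35 members (81.4%) in progenitors and for 39 (90.7%) in HFSCs, and for 49.8% and 53.1% of all genes. The median member had -0.12 in progenitors and -0.14 in HFSCs, and the median of all genes had 0.00012 and -0.014. In HFSCs the median moved with 1 library: without the untreated HFSC library of mouse 4 it was -0.075, with 31 members below 0.

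**Figure D4:**
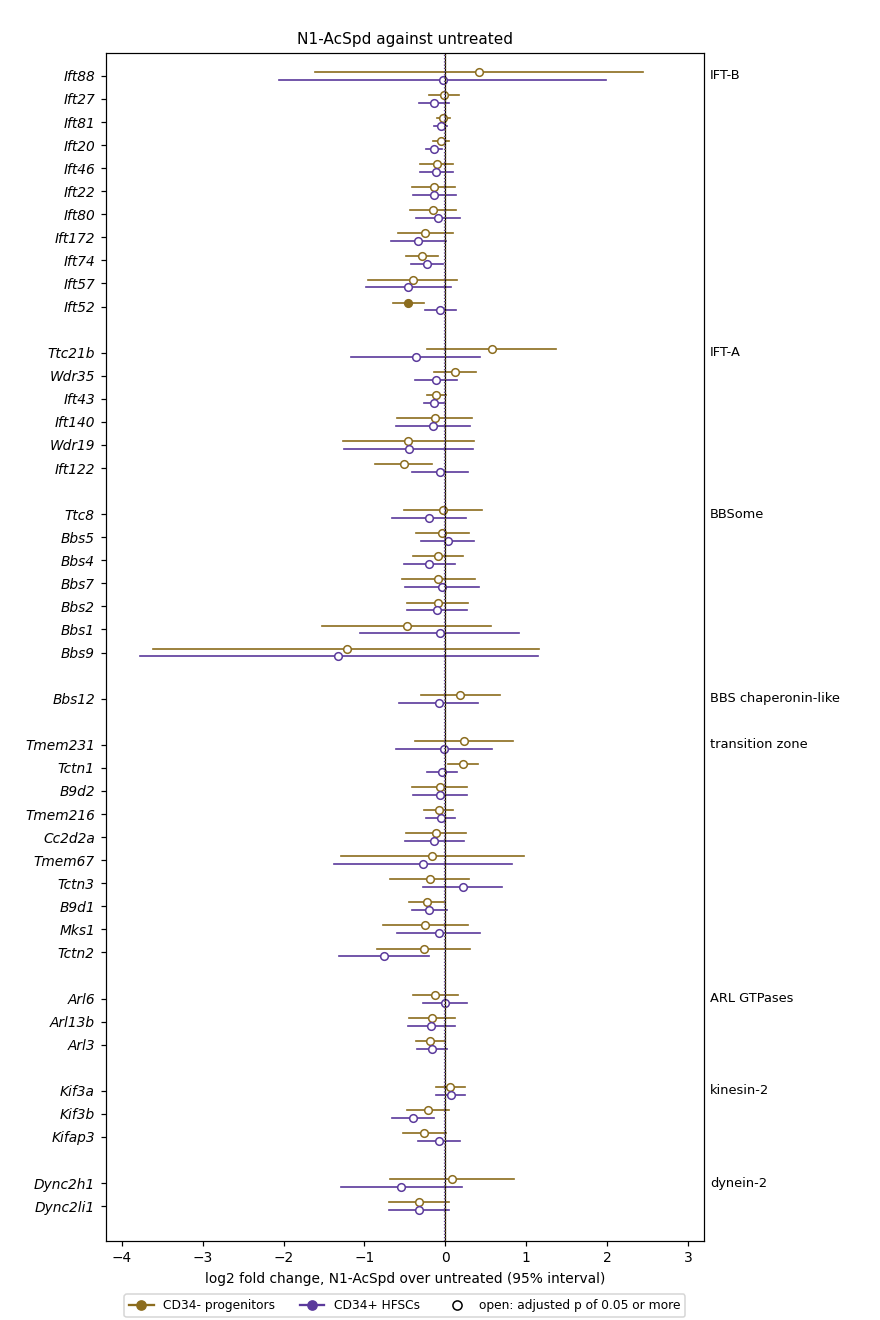
The x axis gives the log2 fold change of N1-AcSpd over untreated with its 95% interval for the 43 tested members, in brown for CD34- progenitors and in purple for CD34+ HFSCs. The single filled point is Ift52 in progenitors at -0.46, and 32 members lie left of 0 in both fractions.

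In progenitors, Ift52 (chr2:163017354-163046141, + strand) had 7.48, 7.73, 7.19 and 6.72 CPM untreated and 5.32, 5.53, 4.9 and 5.41 CPM after N1-AcSpd. All 4 treated libraries lay under all 4 untreated ones, and the log2 fold change was -0.46 ± 0.09 (adjusted p = 0.0413). Among all genes tested, 9.05% showed no overlap between treated and untreated progenitors, 4.13% with the treated libraries lower. This call sat near the threshold: it was lost in 18 of 30 alternatives, among them each fit without 1 mouse (adjusted p = 0.155 to 0.213), while the fold change stayed between -0.51 and -0.42. In HFSCs Ift52 had 8.25, 7.95, 9.32 and 8.94 CPM untreated and 7.54, 9.16, 6.99 and 9.27 CPM treated, a log2 fold change of -0.064 ± 0.089 (adjusted p = 0.871). In treated cells the difference between fractions was therefore 0.64 ± 0.09 (adjusted p = 9.26e-05), against 0.24 in untreated cells. The interaction of 0.39 ± 0.13 had an unadjusted p of 0.00777 and an adjusted p of 1.

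The member with the smallest p among those higher in treated progenitors was Tctn1, at 0.22 ± 0.087 (adjusted p = 0.291), whose counts are nearly all matched by Hvcn1 and Gm15481. Its interaction was -0.26 ± 0.12 (unadjusted p = 0.0583, adjusted p = 1). In HFSCs Tctn3 had the smallest p among the higher members, 0.21 ± 0.23 (adjusted p = 0.796), and treated and untreated libraries overlapped. Kif3b (chr2:153291413-153333390, + strand) led the lower ones: 2.33, 2.8, 3.2 and 3.08 CPM untreated and 2.3, 2.33, 2.09 and 1.94 CPM treated, with a log2 fold change of -0.40 ± 0.12 (adjusted p = 0.216) that was lower in 4 of 4 mice although the lowest untreated and the highest treated library met at 2.33 CPM. In progenitors Kif3b had 2.49, 2.23, 2.68 and 2.21 CPM untreated and 1.98, 2.34, 2.2 and 1.76 CPM treated, which overlapped, at -0.22 ± 0.12 (adjusted p = 0.516).

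Ift74 was lower after treatment in 4 of 4 mice in both fractions, by -0.28 in progenitors and -0.23 in HFSCs, without passing the test (adjusted p = 0.175 and 0.308). Ift20 was likewise lower in 4 of 4 mice in both fractions. The share of all genes with such agreement was not computed, so these counts of mice, and that of Kif3b, cannot be read as particular to these members. Arl3 had -0.18 and -0.16 and B9d1 -0.23 and -0.20 (adjusted p = 0.326 to 0.439). For Ift20, the 95% interval in HFSCs was -0.24 to -0.041 at an adjusted p of 0.221. Kif3a was the 1 member above 0 in both fractions, at 0.062 and 0.066 (adjusted p = 0.857 and 0.852). The median member was below 0 in each of the 4 mice on the log2(CPM + 0.5) scale. It was -0.19 in progenitors of mouse 1, -0.069 to -0.02 in those of mice 2 to 4, and -0.14 to -0.085 in HFSCs. Of the 43 members, 30 were below 0 in progenitors of mouse 1, 25 in each of mice 2 to 4, and 29 to 34 in HFSCs.

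**Figure D5:**
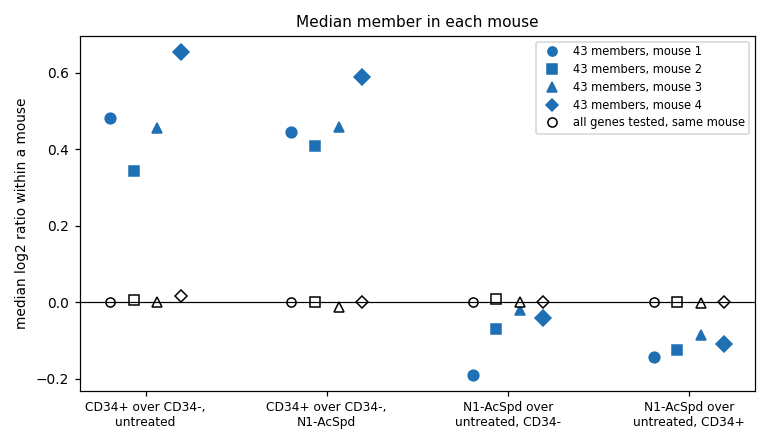
The y axis gives the median log2 ratio, on CPM + 0.5, over the 43 tested members (blue) and over all genes tested (open) within each mouse, for the 4 comparisons on the x axis. The members' medians lie at 0.34 to 0.65 for CD34+ over CD34- and at -0.19 to -0.02 for N1-AcSpd over untreated, and those of all genes near 0.

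Of the other lists, 0 genes of the further IFT and motor, BBSome partner, transition zone, basal body, membrane targeting, disassembly, RFX, proliferation and differentiation lists were called after N1-AcSpd in either fraction by edgeR. An unadjusted p under 0.05 was found for 13.6% of all genes in progenitors and 13.2% in HFSCs. It was found for 3 of 11 basal body genes in progenitors and 1 in HFSCs, for 1 and 2 of 12 further IFT and motor genes, and for 2 and 0 of 12 further transition zone genes. Of the 9 disassembly genes 2 had it in each fraction, of the 6 BBSome partners 1 and 0, of the 6 membrane targeting genes 1 and 0, and of the 5 RFX genes 0 and 1. Of the 12 proliferation genes 0 and 4 had it, and of the 6 terminal differentiation genes 3 and 1. The proliferation genes had a median of -0.0082 in progenitors and 0.16 in HFSCs, and the differentiation genes had 0.23 and 0.205.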

How the data were processed

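Total RNA of sorted organoid cells was reverse transcribed with sample barcodes and UMIs, pooled and sequenced as 3′ tags. Per the labels and the methods, the authors demultiplexed reads with FLEXBAR, mapped them with kallisto 0.45.0 to mm10, assigned them to genes with BEDTools intersect and deposited counts of unique UMIs per gene. The strand setting is not given in the sources used here. Empty cells were read as 0. The 44 members and all other gene lists were chosen with earlier results of these data known.

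The 19049 genes that averaged 5 or more UMIs per library were fitted in edgeR 4.0.16 (TMM, quasi-likelihood F test, 4 group means over 16 libraries). P-values were adjusted by Benjamini-Hochberg over all genes tested, called under 0.05, and SE is the absolute log2 fold change over the square root of F. The authors used DESeq2, here an alternative (1.42.0). Members named with every library were the 5 called members of smallest adjusted p in each direction with a mean count of at least 50 in each cell type comparison, and the member of smallest p in each direction in the other comparisons. CPM are scaled by TMM library sizes. Positions are GENCODE vM21 (mm10), and promoters RefSeq GRCm38.p6. Overlapping genes were found by position for the 44 members only. Their UMIs were subtracted where they came to at least 50% of the member's and in no library exceeded it. Only counts per gene were compared, so whether the same UMIs were counted for both genes was not tested. Same-numbered libraries come from the same mouse, by the labels. Over 24 such pairs, deviations from group means correlated at -0.088 to 0.12. Library pairs of a group differed well beyond counting noise (at least 25.2 chi-square units per gene), so none repeated another. The main fit took each library as its own sample and left out the mouse, which entered as a block in an alternative.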

Additional observations from a re-analysis of the deposited data

Results flagged for a closer look

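Within the groups of 4 libraries, 15 of 176 member-by-group sets held a library whose gap to the nearest other exceeded Dixon's 95% critical share of the group's range for 4 samples, where chance gives about 1 in 20. Of these, 5 belong to the 2 members whose shared tags come and go. Ift88 was low in untreated CD34- mouse 4 (1.67 CPM, gap 0.955 of the range), untreated CD34+ mouse 1 (2.79 CPM, 0.926) and treated CD34+ mouse 4 (2.82 CPM, 0.878), and the other libraries of those groups had 45.5 to 53.4 CPM. Bbs9 was high in untreated CD34+ mouse 1 (28.4 CPM, 0.85) and treated CD34- mouse 2 (31.6 CPM, 0.897), and the others had 0.451 to 4.98 CPM. Net of overlapping genes, Ift88 lay at 1.17 to 2.96 CPM and Bbs9 at 0.266 to 1.82 CPM in all libraries.

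The other such libraries lay nearer to their groups. In untreated CD34- cells these were Wdr19 in mouse 2 (1.15 CPM from 18 UMIs against 0.451 to 0.476 CPM, gap share 0.964), Bbs12 in mouse 3 (0.822 CPM, 0.834), Tctn2 in mouse 4 (1.71 CPM, 0.835) and Kif3a in mouse 2 (44.2 CPM against 37.1 to 37.7 CPM, 0.91). In untreated CD34+ cells Ift46 was low in mouse 3 (7.53 CPM, 0.967) and Tmem216 high in mouse 4 (16.2 CPM, 0.948). In treated CD34- cells Bbs12 was high in mouse 4 (0.861 CPM, 0.835). In treated CD34+ cells Ttc8 was low in mouse 1 (1.15 CPM, 0.964), Tctn2 high in mouse 4 (2.58 CPM, 0.869) and Mks1 high in mouse 3 (0.92 CPM from 15 UMIs, 0.856). No cause of these was tested.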

How the results depend on the processing

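The counts of members called in the cell type comparisons stayed between 22 and 33 in untreated and between 24 and 30 in treated cells under all alternatives, with 21 to 32 and 21 to 28 higher, and the members' median stayed above 0. It moved to 0.76 with library totals and to 0.54 with counts thinned to the smallest library in treated cells. Of 59 called results of single members, 33 kept their call and direction in all their alternatives. In 117 of 1910 refits of single members a call was lost, and in 2 a direction reversed: Ift81 net of overlapping genes, at 0.74 untreated and 1.04 treated. The absolute log2 limit of 0.5 took Kif3a, Ift43, Ift81 and Tmem216 out of the calls in both conditions, Ift27 and Wdr35 in treated and Tctn1 in untreated cells, since each had a smaller change. The 1 member called in treated progenitors (Ift52) became 0 with no low count filter, with only the compared groups, with thinned counts and with the fold limit, and leaving out 1 library or mouse gave 0 to 1. The cause was not tested. The members' median in the interaction moved from -0.0075 to -0.053 with thinned counts, and from -0.061 to 0.040 without 1 library or mouse. In treated HFSCs without 1 library or mouse it lay between -0.16 and -0.075.

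With the mouse as a replicate block, the members called were 29 and 30 in the cell type comparisons, 1 in treated progenitors and 0 in treated HFSCs. The block took the call of Mks1 in untreated cells (adjusted p = 0.0567) and of Tmem231 in treated cells (adjusted p = 0.0653). It added Ift140 in both conditions (adjusted p = 0.0219 and 0.0321) and Ttc21b in untreated cells (adjusted p = 0.0237), and changed no other call of a member in the cell type comparisons. Among all genes it raised the calls from 117 to 349 in treated progenitors and from 62 to 152 in treated HFSCs, and DESeq2 gave 558 and 431. In the interaction edgeR called 0 genes and DESeq2 called 71. With thinned counts Mks1 in untreated cells and Tmem231, Tctn3 and Wdr35 in treated cells missed the threshold (adjusted p = 0.287, 0.218, 0.101 and 0.0567).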
